A study of Rattus norvegicus with 6 samples.

Results

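The genes described here encode the growth factors of the fibroblast growth factor (FGF), platelet-derived growth factor (PDGF), vascular endothelial growth factor (VEGF) and angiopoietin families with their receptor tyrosine kinases, together with hepatocyte growth factor (HGF) and part of the epidermal growth factor (EGF) family. The rule takes symbols of these families and a fixed set of further symbols, with a mean above 0 over the 6 libraries, and was written with earlier results of these data known. It found 48 of the 17833 genes of the deposited table. 1 of them, Fgfr1op2, shares only its spelling with the receptors (FGFR1 oncogene partner 2), which left 47 family genes. Except for the intracellular FGF homologous factors, their products work at the outer face of the cell: a ligand brings receptor chains together, the receptors phosphorylate each other, and the signal runs on through adaptors to the ERK, PI3 kinase and phospholipase C pathways. In the vessel wall the VEGF and Tie receptors are known as receptors of endothelial cells, the PDGF receptors as receptors of pericytes, smooth muscle cells and fibroblasts, and the FGF receptors as receptors shared by epithelium and mesenchyme.

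Bulk RNA-seq was available for pulmonary veins (PVs) taken at the right upper lung lobe of wild type rats of the SD strain. The BPVB group (n = 3 rats) had undergone bilateral pulmonary vein banding, an operation that constricts the PVs, at postnatal day 1. The sham group (n = 3 rats) had the same chest operation without constriction, and both groups were collected at postnatal day 21. Banding in a newborn narrows the vein from outside, and the study reports a thicker intima in the upstream PVs of banded rats. The vein was sequenced whole, so that a level belongs to a mixture of cell types. In such bulk samples fewer cells of a type and less RNA per cell cannot be told apart.

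The values are FPKM, fragment numbers per unit of gene length and of sequencing depth, which allow levels to be compared between genes because they are per length. Library totals were 26078189 to 29725808 fragments in the BPVB group and 23439506 to 23821184 in the sham group. The vein label was checked against cell type markers. Smooth muscle markers summed to 4612 to 5041 FPKM and the markers of the myocardial sleeve of the vein to 15488 to 21705 FPKM over the 6 libraries. Alveolar type 2 markers were also present, and all 7 of 7 were higher in the BPVB group, with sums of 538 to 587 FPKM against 59.9 to 61.8 in the sham group. All 7 of 7 tested macrophage markers were higher as well (676 to 697 against 224 to 234 FPKM), whereas 5 of 9 endothelial markers were lower and 0 higher (1285 to 1294 against 1432 to 1451 FPKM). Of the other cell types, mast cells (3 of 5 higher) and adipocytes (3 of 4 higher, 1 lower) stood mostly higher in the BPVB group, Schwann cells (1 of 4 higher, 3 lower) and mesothelium (3 of 4 lower) mostly lower, and erythroid cells (1 of 3 lower) and platelets (1 of 4 lower) had few calls. These differences in marker levels stand beside every result that follows, and their part in the results was not tested.

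Of the 47 family genes, 41 had a mean of at least 0.1 FPKM and were tested. The comparison used limma on log2(FPKM + 0.5), on which scale all log2 fold changes below are given as BPVB over sham, with standard error (SE) and with p-values adjusted by the Benjamini-Hochberg method over the 15150 genes tested. A gene was called with an adjusted p under 0.05. Among the 41 tested members, 17 were called, or 41.5%, where 31.5% of all tested genes were. The 10 members that rose made up 24.4% of those tested (17.2% of all genes), and the 7 that fell 17.1% (14.3% of all genes). Scaling each library to the same FPKM sum (TPM) turned this split into 14 higher and 6 lower, and that over all genes from 2605 higher and 2170 lower to 2999 and 1888. Other scalings tipped the split over all genes the other way. Median-of-ratios scaling gave 2362 higher and 2454 lower, with 10 and 7 members. Quantile normalization gave 2354 and 2434, with 9 and 7 members. Only Fgfr4 was also past an absolute log2 fold change of 1, which 3.27% of all genes passed. In 27 of the 41 members the groups held no overlapping values, a larger share than the 45.6% of all genes tested. Fgf5 and Angpt4, both among the 27, passed the filter of 0.1 FPKM only through the BPVB group. The median log2 fold change was 0.15 over the members and 0.025 over all genes.

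**Figure D1:**
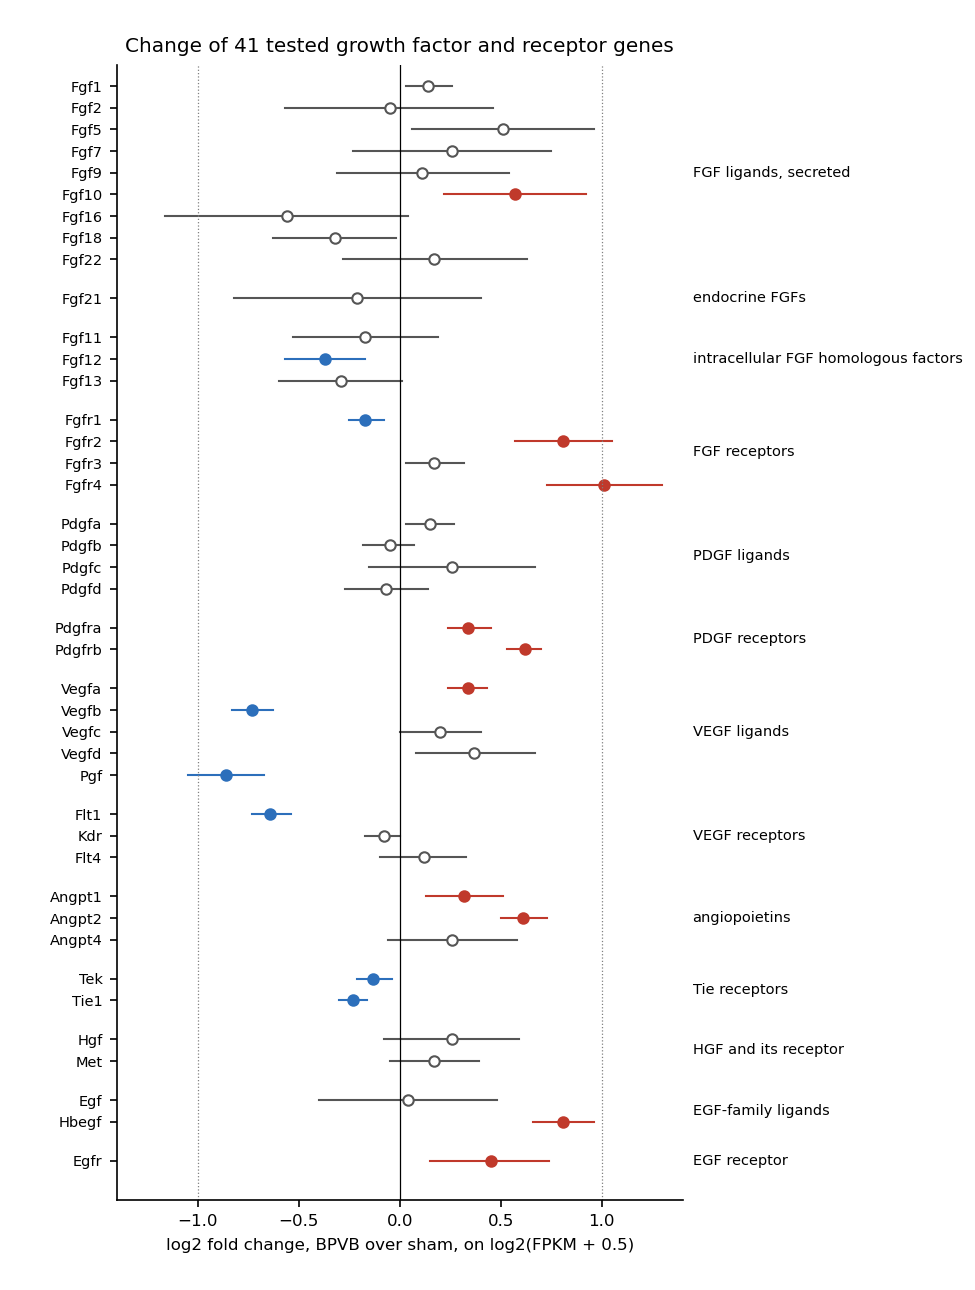
Log2 fold change (BPVB over sham, on log2(FPKM + 0.5), x axis) of the 41 tested members, grouped by family, with 95% confidence intervals as bars. Red points rose and blue points fell with an adjusted p under 0.05, open points were not called, and dotted lines mark a log2 fold change of 1 in either direction. The changes run from -0.86 in Pgf to 1.01 in Fgfr4.

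Levels spanned a wide range. A mean of 10 FPKM or more was reached by 13 members and 17 were under 1 FPKM. Receptors stood at the top, led by the endothelial receptors Tie1 and Tek, and most FGF ligands stood at the bottom. The receptors and the secreted ligands both held changes in either direction. Of 13 receptors, 5 rose, 4 fell and 4 were not called (median log2 fold change 0.17). Of 25 tested secreted ligands, 5 rose, 2 fell and 18 were not called (median 0.17).

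**Figure D2:**
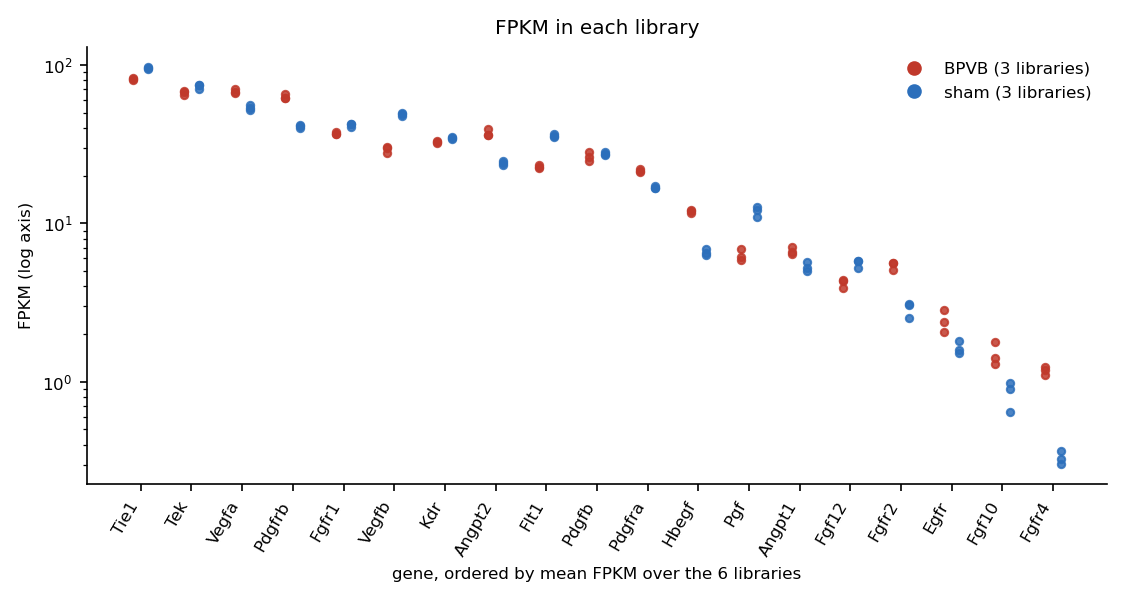
FPKM (log axis) of the 17 called members, Kdr and Pdgfb in each library, ordered by mean level, with 1 point per rat, red for BPVB and blue for sham. Both groups keep their 3 points close together for genes above 10 FPKM, and the spread is wider in Fgf10. Fgfr4, the lowest gene shown, keeps its points closer than Fgf10 in both groups.

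In the VEGF family the ligand Vegfa rose while Vegfb, Pgf and the receptor Flt1 fell. Flt1, also called VEGF receptor 1, binds VEGFA tightly with weak kinase activity and acts in part as a decoy, and VEGFB and placental growth factor (Pgf) are ligands of Flt1 and not of Kdr. Kdr, VEGF receptor 2, is the main signalling receptor for VEGFA in endothelium. The upstream sequences of the 3 genes that fell are shown with that of Kdr, since Flt1 and Kdr are both endothelial receptors with unlike log2 fold changes. Each is the 250 bases before the RefSeq start on the GRCr8 assembly, 5′ to 3′ in the direction of the gene. Flt1 lies at chr12:12333180-12333429 (plus strand), Kdr at chr14:32571813-32572062 (plus), Pgf at chr6:110557748-110557997 (minus) and Vegfb at chr1:213607153-213607402 (minus). Capitals mark matches, on either strand, to a cAMP response element (TGACGTCA), a TATA box (TATAAA), a GC box (GGGCGG) and an ETS core (CCGGAA).
Flt1: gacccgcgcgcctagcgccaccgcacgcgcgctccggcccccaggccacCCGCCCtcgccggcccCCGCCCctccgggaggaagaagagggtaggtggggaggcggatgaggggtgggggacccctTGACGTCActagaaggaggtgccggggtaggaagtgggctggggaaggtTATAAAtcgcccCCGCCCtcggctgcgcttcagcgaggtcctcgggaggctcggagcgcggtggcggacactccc
Kdr: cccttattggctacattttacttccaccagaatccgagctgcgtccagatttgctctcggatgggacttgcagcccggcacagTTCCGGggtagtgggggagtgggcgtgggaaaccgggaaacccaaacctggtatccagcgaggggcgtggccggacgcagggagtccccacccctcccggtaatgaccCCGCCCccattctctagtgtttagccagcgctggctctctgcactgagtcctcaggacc
Pgf: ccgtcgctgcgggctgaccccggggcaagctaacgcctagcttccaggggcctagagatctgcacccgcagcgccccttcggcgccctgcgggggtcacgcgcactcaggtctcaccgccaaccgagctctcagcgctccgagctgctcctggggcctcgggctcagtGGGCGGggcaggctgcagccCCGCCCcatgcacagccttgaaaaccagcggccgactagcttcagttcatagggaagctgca
Vegfb: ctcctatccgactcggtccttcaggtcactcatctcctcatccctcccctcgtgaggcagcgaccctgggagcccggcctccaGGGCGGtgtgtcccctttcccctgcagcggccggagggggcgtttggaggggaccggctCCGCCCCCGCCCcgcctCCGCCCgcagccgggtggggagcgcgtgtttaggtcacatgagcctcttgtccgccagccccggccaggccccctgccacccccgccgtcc

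The Flt1 window held 1 cAMP response element, 1 TATA box that began 75 bases before the start and 3 GC boxes. Kdr held 1 GC box and 1 ETS core, the latter 167 bases before the start, and no TATA box. Pgf held 2 GC boxes, Vegfb held 4, of which a pair lies side by side, and neither held another of these motifs. The marked matches do not overlap each other. Of all 33469 RefSeq windows of this length, 1.59% held the cAMP response element, 12.9% the TATA box, 30.5% the GC box and 12.6% the ETS core. The hypoxia response core (ACGTG), in 16.6% of all windows, was in none of the 4. Of the 39 members with a window, 2 held the cAMP response element (Areg and Flt1), 8 the TATA box, 24 the GC box, 6 the hypoxia response core and 2 the ETS core. A member was counted once if any of its windows held the motif. The shares above are of windows (33469 windows of 27457 genes), so the 2 measures are not alike. These motifs were chosen after the windows were seen, a match is a description of letters only, and no binding was measured.

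Flt1 (NCBI Gene 54251) was at 22.6, 22.4 and 23.3 FPKM in the 3 BPVB libraries and at 36.6, 35.2 and 35.5 FPKM in the sham libraries. All BPVB values lay below all sham values, and the receptor fell 1.57-fold, with a log2 fold change of -0.64 (SE 0.0416, adjusted p = 6.8e-06, limma). Kdr (NCBI Gene 25589) was at 32.5, 33.0 and 32.1 FPKM under BPVB and at 34.6, 34.8 and 33.9 FPKM in sham. Its groups did not overlap either, but the difference was small and was not called (log2 fold change -0.08, 95% confidence interval -0.17 to 0.00, adjusted p = 0.13, limma). Flt4 (NCBI Gene 114110), the receptor for VEGFC and VEGFD known from lymphatic endothelium, was at 5.17, 4.56 and 4.95 FPKM against 4.88, 4.09 and 4.47, with overlapping groups and no call (0.12, -0.10 to 0.33, adjusted p = 0.40, limma). In the list of lymphatic markers 4 of 5 rose and 1 fell, with Pdpn (log2 fold change 2.04, also a gene of alveolar type 1 cells), Mmrn1 (1.16) and Prox1 (1.05) on top. The 1 that fell, Lyve1 (-0.47), had the highest level of the list, at 27.1 ± 1.34 FPKM against 37.7 ± 1.58. The list summed to 50.7 to 58.1 FPKM against 44.4 to 47.5, and without Pdpn, a sum added after seeing the data, to 37.5 to 41.4 against 41.3 to 43.9. The part of these markers in the Flt4 values was not tested.

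Within a library the ratio of Flt1 to Kdr does not depend on the scaling between libraries. It was 0.696, 0.680 and 0.727 in the BPVB group and 1.06, 1.01 and 1.05 in the sham group. In the sham veins the 2 receptors thus stood at nearly the same level per length, and in each BPVB vein Flt1 stood below Kdr. The log2 ratio differed by -0.57 (exact permutation test, two-sided, p = 0.1, adjusted over 3 ratios p = 0.1), and 0.1 is the smallest p that 3 rats against 3 can give.

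Vegfa (NCBI Gene 83785), the main angiogenic ligand, was the highest of the ligands. The BPVB veins held 70.4, 67.8 and 66.4 FPKM of it and the sham veins 51.9, 53.5 and 56.1 FPKM. Every BPVB vein was above every sham vein, and the ligand rose 1.27-fold (log2 fold change 0.34, SE 0.0411, adjusted p = 3.1e-04, limma). Vegfb (NCBI Gene 89811), a ligand known for its high level in heart muscle, was at 29.7, 27.8 and 30.3 FPKM against 47.7, 49.5 and 49.2. It fell 1.67-fold without overlap (-0.73, SE 0.0443, adjusted p = 4.5e-06, limma). Pgf (NCBI Gene 94203) was at 6.90, 5.89 and 6.16 FPKM against 12.1, 10.9 and 12.6, also without overlap, and fell 1.88-fold (-0.86, SE 0.0839, adjusted p = 8.6e-05, limma), with 240 to 468 fragments behind each value.

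Beside the fall of Vegfb, 6 of 8 myocardial sleeve markers fell and 2 rose, with sums of 15488 to 15899.5 FPKM in BPVB and 21295 to 21705 FPKM in sham. The markers that fell had log2 fold changes from -0.69 in Tnni3 (cardiac troponin I) to -0.21 in Myl4 (an atrial myosin light chain), and Vegfb at -0.73 lay just outside that range. The 2 that rose were Ryr2 (0.38), the calcium release channel, and Nppa (0.23), atrial natriuretic peptide. The part of the sleeve in the Vegfb value was not tested.

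The lymphatic ligands Vegfc and Vegfd were not called. Vegfc was at 9.54 ± 0.831 FPKM (mean ± SD, n = 3) against 8.22 ± 0.665, with overlapping groups (log2 fold change 0.20, adjusted p = 0.11, limma). Vegfd was at 3.63, 3.63 and 2.81 FPKM against 2.36, 2.25 and 2.81, and the lowest BPVB value stood next to the highest sham value (0.37, adjusted p = 0.056, limma). Without BPVB replicate 3 it differed by 0.48 on the log2 scale with an adjusted p of 0.027, and without sham replicate 3 it was 0.45 with an adjusted p of 0.047 (limma). The call thus turned on 1 library of either group, and also on the processing, since TPM scaling or a filter of 1 FPKM gave it with all 6 libraries.

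The summed FPKM of the 5 VEGF ligands was 117 ± 3.9 in the BPVB group and 125 ± 2.8 in the sham group, but its makeup shifted. Vegfa held 58.4% ± 0.69 of that sum in the BPVB group and 43.0% ± 0.75 in the sham group (SD, n = 3). The share of Vegfb was 25.1% ± 1.2 against 39% ± 0.73 and that of Pgf 5.41% ± 0.28 against 9.46% ± 0.59. Of the 3 VEGF receptors, which summed to 60.2 ± 0.2 FPKM against 74.7 ± 1.3, Kdr held 54.0% ± 0.92 against 46.1% ± 0.77 and Flt1 37.9% ± 0.68 against 47.9% ± 0.33. The shares are a description of the same FPKM values and were given no test of their own.

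**Figure D3:**
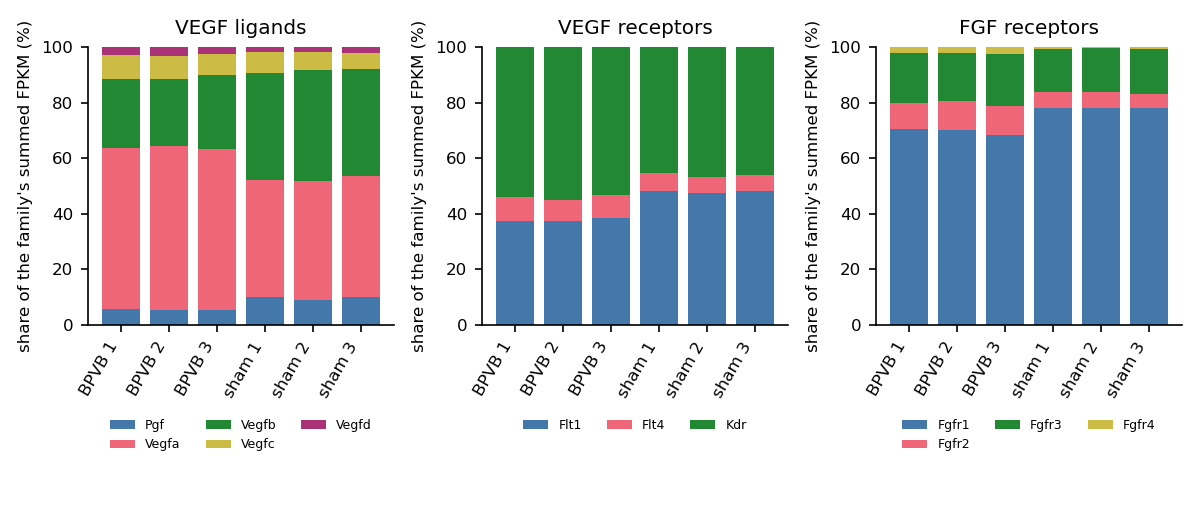
Share of each gene in the summed FPKM of the VEGF ligands, the VEGF receptors and the FGF receptors (y axis, percent) in each of the 6 libraries, stacked to 100%. Vegfa takes the largest part of the ligands in all libraries, at 58.0 to 59.2% in BPVB and 42.2 to 43.7% in sham, and Fgfr1 takes 68.4 to 70.3% and 78.0 to 78.2% of the FGF receptors.

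In the angiopoietin system both main ligands rose while both receptors fell by little. Angpt1 is the agonist of the receptor Tie2 (gene Tek) made by mural cells, Angpt2 is its context-dependent antagonist stored in endothelial cells, and Tie1 is a co-receptor of Tie2. Angpt2 (NCBI Gene 89805) was at 39.3, 35.9 and 35.9 FPKM in the BPVB libraries and at 23.5, 24.8 and 23.9 FPKM in the sham libraries. All BPVB values were above all sham values, a rise of 1.54-fold (log2 fold change 0.61, SE 0.0505, adjusted p = 3.1e-05, limma). Angpt2 lies inside the span of the protein-coding gene Mcph1, whose own level was 0.802 ± 0.162 FPKM against 0.632 ± 0.14 (log2 fold change 0.20, adjusted p = 0.36, limma). The level of Mcph1 was far under that of Angpt2 in both groups. The strand setting of the counting is not given in the sources used here, and the part of Mcph1 in the Angpt2 values was not tested. By RefSeq positions Flt1, Fgf10, Fgf12, Fgfr1, Tie1 and Angpt1 overlap non-coding genes only.

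Angpt1 (NCBI Gene 89807) was at 7.13, 6.58 and 6.43 FPKM against 5.01, 5.19 and 5.70. It rose 1.27-fold without overlap (log2 fold change 0.32, SE 0.0834, adjusted p = 0.019, limma). The call was lost without BPVB replicate 1 (log2 fold change 0.27, adjusted p = 0.068), without sham replicate 1 (0.28, adjusted p = 0.064) and without sham replicate 2 (0.30, adjusted p = 0.055, all limma). Angpt4, a further Tie2 ligand, was near the floor at 0.183 ± 0.0428 FPKM against 0.0696 ± 0.0259, with 7 to 38 fragments a library and no call (0.26, adjusted p = 0.20, limma).

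The ratio of Angpt2 to Angpt1 was 5.51, 5.45 and 5.58 in the BPVB group and 4.68, 4.79 and 4.19 in the sham group. Angpt2 thus exceeded Angpt1 in all 6 libraries, and by more in every BPVB vein than in any sham vein. The log2 ratio differed by 0.28 (p = 0.1 and adjusted p = 0.1 by the same exact test, again its lowest possible value).

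Tie1 (NCBI Gene 89806) had the highest level of all members, at 82.4, 80.0 and 81.7 FPKM in BPVB and 94.9, 94.3 and 97.1 FPKM in sham. It fell 1.17-fold, with no overlap (log2 fold change -0.23, SE 0.0303, adjusted p = 5.1e-04, limma). Tek (NCBI Gene 89804) was at 67.8, 68.0 and 64.7 FPKM against 74.7, 74.3 and 70.0. The gap between its groups was narrow, and of the 6 fits that left out 1 library only the one without sham replicate 3 kept the call of a 1.09-fold fall (-0.13, SE 0.0391, adjusted p = 0.037, limma). Its adjusted p was 0.056 without BPVB replicate 1 and without BPVB replicate 2, 0.12 without BPVB replicate 3 or sham replicate 1 and 0.11 without sham replicate 2 (limma). With all 6 libraries the call was also lost under quantile normalization and TPM scaling (both -0.09, adjusted p = 0.11 and 0.12, limma).

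Of the 9 tested endothelial markers 5 fell, 0 rose and 4 were not called. They had log2 fold changes from -0.52 to 0.02, with a median of -0.17, and Emcn (-0.52), Cdh5 (-0.34) and Eng (-0.20), which encode endomucin, VE-cadherin and endoglin, fell most. Tie1, Tek and Kdr lay within that range and Flt1, at -0.64, below it. In the capillary list 5 of 7 markers fell and 2 rose, with a median of -0.39, and with sums of 276 to 287 FPKM against 320.5 to 326. Cd300lg (-2.72), Ca4 (carbonic anhydrase 4, -1.07) and Rgcc (-0.48) fell most, and Plvap (a protein of fenestral diaphragms, 0.45) and Ednrb (an endothelin receptor, 0.32) rose. The part of a change in endothelial or capillary content in the values of the receptors was not tested.

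**Figure D4:**
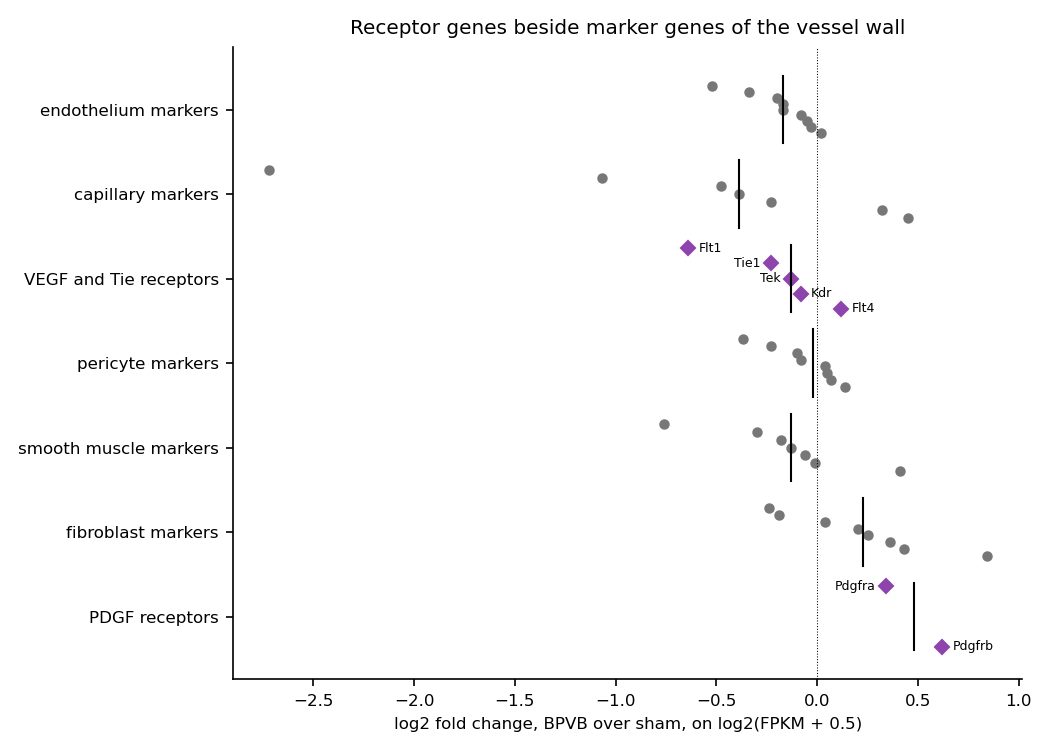
Log2 fold change (BPVB over sham, x axis) of VEGF, Tie and PDGF receptors (purple diamonds) beside marker genes of cells of the vessel wall (grey circles), with 1 row per group and the median as a vertical line. Flt1 at -0.64 lies left of the 9 markers of the endothelium list but right of the capillary markers Cd300lg (-2.72) and Ca4 (-1.07), and Pdgfrb at 0.62 lies right of all pericyte and smooth muscle markers.

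Both PDGF receptors rose, and none of the 4 PDGF ligands was called. Pdgfrb (NCBI Gene 24629), the receptor of pericytes and smooth muscle cells for PDGF-BB, was at 62.2, 62.1 and 65.2 FPKM in the BPVB libraries and at 41.9, 39.9 and 41.2 FPKM in the sham libraries. The groups stood far apart relative to their spread, a rise of 1.54-fold (log2 fold change 0.62, SE 0.0381, adjusted p = 4.9e-06, limma). Pdgfra (NCBI Gene 25267), the receptor of fibroblasts and the main one for PDGF-AA, was at 21.2, 21.5 and 22 FPKM against 16.6, 16.8 and 17.3. It rose 1.28-fold, again without overlap (0.34, SE 0.0464, adjusted p = 5.7e-04, limma). The ratio of Pdgfra to Pdgfrb was 0.341, 0.346 and 0.337 against 0.398, 0.421 and 0.419, lower in every BPVB vein than in any sham vein (difference of the log2 ratio -0.27, p = 0.1 and adjusted p = 0.1 by the same exact test, again its lowest possible value).

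Among pericyte markers 0 of 8 rose and 2 fell (Cox4i2 and Rgs5), with log2 fold changes of -0.37 to 0.14 and sums of 762 to 774 FPKM against 876 to 893. Smooth muscle markers gave 1 rise (Des, the muscle filament desmin, 0.41) and 5 falls of 7, led by the contractile genes Actg2 (-0.76), Myh11 (-0.30) and Acta2 (-0.18), with sums of 4612 to 4651 against 4978 to 5041 FPKM. Of 8 fibroblast markers 4 rose, led by Scara5 (0.84), Col1a2 (0.43) and Col1a1 (0.36), which encode a scavenger receptor and both chains of type I collagen, and 2 fell, Dcn (-0.24) and Lum (-0.19), both small leucine-rich proteoglycans. Their sums were 4085 to 4092 FPKM in BPVB and 3583 to 3605 FPKM in sham. Pdgfrb at 0.62 thus lay above every pericyte and smooth muscle marker tested and above all fibroblast markers but Scara5 (list median 0.23), and the part of these cells in the values was not tested.

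Pdgfb (NCBI Gene 24628), the highest PDGF ligand, made by endothelium, was at 28.2, 24.9 and 26.4 FPKM against 27.3, 28.3 and 26.9. The groups overlapped and the log2 fold change was -0.05 (95% confidence interval -0.18 to 0.07, adjusted p = 0.48, limma). Pdgfa was at 14.1 ± 0.432 FPKM against 12.7 ± 0.104 (0.15, adjusted p = 0.064, limma). Pdgfc (3.75 ± 0.597 against 3.08 ± 0.819 FPKM) and Pdgfd (3.51 ± 0.163 against 3.69 ± 0.155 FPKM) overlapped between groups, with log2 fold changes of 0.26 and -0.07. The 4 ligands together summed to 47.9 ± 1.6 FPKM in BPVB and 47.0 ± 0.96 FPKM in sham.

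The FGF receptors changed in makeup at a similar sum. Fgfr1, known as the mesenchymal receptor, fell slightly, and Fgfr2, known from lung epithelium, and Fgfr4, known best from liver, rose. Their sum was 53.2 ± 0.91 FPKM in the BPVB group and 53.3 ± 1.2 in the sham group. Fgfr1 (NCBI Gene 79114) was at 36.7, 37.8 and 36.6 FPKM against 42.3, 42.1 and 40.6, a fall of 1.12-fold without overlap (log2 fold change -0.17, SE 0.0382, adjusted p = 0.0099, limma). Fgfr2 (NCBI Gene 25022) was at 5.05, 5.59 and 5.62 FPKM against 3.10, 3.05 and 2.51, and every BPVB value exceeded every sham value. It rose 1.88-fold (0.81, SE 0.104, adjusted p = 4.4e-04, limma), and its share of the family went from 5.41% ± 0.49 in sham to 10.2% ± 0.44 in BPVB.

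Fgfr4 (NCBI Gene 25114) had the highest log2 fold change of the 41 tested members on log2(FPKM + 0.5), a scale that understates genes at 0 in a group such as Fgf5, described below. It was at 1.19, 1.10 and 1.24 FPKM in the BPVB libraries and at 0.324, 0.301 and 0.364 FPKM in the sham libraries, from 22 to 115 fragments. The groups did not come near each other, and the ratio of the mean FPKM was 3.57. The pseudocount draws the log2 fold change of so low a gene toward 0, to 1.01 (SE 0.125, adjusted p = 3.4e-04, limma). It did not pass 1 with a pseudocount of 1 (0.71), with quantile normalization (0.92) or median-of-ratios scaling and, at 0.99, without BPVB replicate 3 or sham replicate 2. The highest values were 1.82, from limma-voom on the fragments, and 1.57, from a pseudocount of 0.1, and the adjusted p stayed under 0.05 in all 15 alternatives that tested the gene. Fgfr3 (NCBI Gene 84489) was at 9.25, 9.44 and 10.0 FPKM against 8.49, 8.40 and 8.45, without overlap but not called (0.17, 95% confidence interval 0.03 to 0.32, adjusted p = 0.072, limma).

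Most alveolar markers rose beside Fgfr2 and Fgfr4. All 7 alveolar type 2 markers rose, with a median log2 fold change of 3.09, led by Sftpc (3.4), Slc34a2 (3.39) and Sftpb (3.31), genes of surfactant and of phosphate uptake. Of 7 alveolar type 1 markers 6 rose and 1 fell (median 1.58, sums of 199 to 206 FPKM against 128 to 131), with Cldn18 (3.01), Ager (2.54) and Aqp5 (2.52) on top, a claudin, a receptor and a water channel of that cell, and Hopx (-0.26) the one that fell. The single airway marker above the filter, the club cell gene Scgb1a1, rose by 2.52. The part of epithelial content in the rise of Fgfr2, Fgfr4 and the EGF family genes below was not tested.

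Of 9 tested secreted FGF ligands 1 rose and 8 were not called. Fgf1 (NCBI Gene 25317), which binds all FGF receptors, was by far the highest, at 20.1, 19.6 and 20.7 FPKM against 18, 17.7 and 19.0. Its groups did not overlap, but the test missed the threshold (log2 fold change 0.14, 95% confidence interval 0.03 to 0.26, adjusted p = 0.066, limma). The ligands next in level, all under 2 FPKM, were far lower.

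Fgf10 (NCBI Gene 25443), the mesenchymal ligand of Fgfr2 in lung branching, rose from 0.848 ± 0.177 to 1.5 ± 0.258 FPKM (log2 fold change 0.57, SE 0.154, adjusted p = 0.021, limma). The values were 1.79, 1.42 and 1.3 FPKM against 0.649, 0.988 and 0.907, without overlap, but they stand for 10 to 31 fragments each. The call was lost without BPVB replicate 1 (0.47, adjusted p = 0.071), without sham replicate 1 (0.46, adjusted p = 0.069) and with limma-voom on the fragments (0.80, adjusted p = 0.32). Fgf7, the other mesenchymal ligand of Fgfr2, was at 0.983 ± 0.468 FPKM against 0.703 ± 0.111, with overlapping groups (0.26, adjusted p = 0.40, limma).

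Fgf5 was found in 15, 8 and 2 fragments of the BPVB libraries and in 0 of each sham library. Set against a floor of 3 fragments over the sham group, with the BPVB fragments taken as exact, the bound was 7.18-fold higher. It covers the counting error of the sham group only. The bound was 4.24-fold without BPVB replicate 1, which holds 15 of the 25 fragments, 10.3-fold and 7.14-fold without BPVB replicates 3 and 2, and 4.77-fold to 4.81-fold without a sham library, values added after seeing the data. Fgf5 passed the filter of 0.1 FPKM only through the BPVB group (means of 0.227 and 0 FPKM), so its test is given as a description only. The log2 fold change was not called (0.51, adjusted p = 0.081, limma, and 3.53 with limma-voom on the fragments), except without BPVB replicate 3 (0.70, adjusted p = 0.022). Fgf18, a ligand of lung mesenchyme, was at 0.591 ± 0.101 FPKM against 0.861 ± 0.0691, without overlap and not called (-0.32, adjusted p = 0.10, limma). Fgf2, Fgf9, Fgf16 and Fgf22 overlapped between the groups, with log2 fold changes from -0.56 in Fgf16 to 0.17 in Fgf22.

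Fgf17 and Fgf4, both below the filter, had at most 1 and 4 fragments in any library. The endocrine hormones were scarce too. Fgf21 was at 0.519 ± 0.357 FPKM against 0.628 ± 0.153 (-0.21, adjusted p = 0.60, limma), and Fgf23 had at most 6 fragments.

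The intracellular FGF homologous factors are not secreted and bind sodium channels instead of receptors. Fgf12, known from heart muscle and neurons, was the highest, at 4.34, 4.37 and 3.92 FPKM against 5.75, 5.25 and 5.78. It fell 1.33-fold without overlap (log2 fold change -0.37, SE 0.087, adjusted p = 0.011, limma). Fgf13 was at 2.30 ± 0.106 FPKM against 2.96 ± 0.581 (-0.29, adjusted p = 0.13), Fgf11 at 0.407 ± 0.108 against 0.519 ± 0.125 (-0.17, adjusted p = 0.47, both limma), and Fgf14 was below the filter. Neuron markers fell beside them in 5 of 6 tested genes and rose in 0 (median -0.99, led by Tubb3, -2.17, Slc18a3, -1.64, and Th, -1.27, with Slc18a3 and Chat at 0 in the BPVB group, and sums of 4.46 to 6.08 FPKM against 15.3 to 18). Of the neuron markers named, Slc18a3 and Th passed the filter only through the sham group. The part of nerve and of the myocardial sleeve in the fall of Fgf12 was not tested.

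In the EGF family Hbegf and the receptor Egfr rose. Hbegf (NCBI Gene 25433), a membrane-bound ligand of Egfr and Erbb4 that is released by shedding, was at 11.7, 12.2 and 11.9 FPKM in the BPVB libraries and at 6.54, 6.89 and 6.34 FPKM in the sham libraries. The rise of 1.81-fold stood far outside the spread (log2 fold change 0.81, SE 0.0647, adjusted p = 2.5e-05, limma). Egfr (NCBI Gene 24329) was at 2.39, 2.07 and 2.82 FPKM against 1.58, 1.52 and 1.80. Its groups did not overlap, and it rose 1.48-fold (0.45, SE 0.13, adjusted p = 0.029, limma). The call of Egfr was lost without BPVB replicate 1, BPVB replicate 3, sham replicate 1 or sham replicate 2, at adjusted p of 0.067, 0.095, 0.078 and 0.083, with log2 fold changes of 0.35 to 0.45 (limma).

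The ligand Egf was at 0.619 ± 0.18 FPKM against 0.596 ± 0.212, with overlapping groups (0.04, adjusted p = 0.91, limma). Areg, an epithelial Egfr ligand below the filter, was seen as 2, 2 and 7 fragments under BPVB and 0 in each sham library. Against the same floor, again with the BPVB fragments taken as exact, the bound was 3.16-fold higher. Without BPVB replicate 3, which holds 7 of the 11 fragments, the bound was 1.8-fold, and without a sham library 2.1-fold to 2.12-fold. Ereg had 1 fragment in 1 library.

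Hgf, the mesenchymal ligand of the receptor Met, was not called, nor was Met. Hgf (NCBI Gene 24446) was at 3.4, 3.67 and 3.28 FPKM against 2.19, 2.82 and 3.54, and sham replicate 3 lay inside the BPVB range (log2 fold change 0.26, 95% confidence interval -0.08 to 0.59, adjusted p = 0.23, limma). Met (NCBI Gene 24553) was at 2.96, 2.73 and 2.89 FPKM against 2.56, 2.38 and 2.52, without overlap (0.17, -0.05 to 0.39, adjusted p = 0.23, limma).

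Genes that work beside the members were taken from 6 lists of 70 genes, of which 69 were in the table and 66 were tested. Of these, 24 rose and 14 fell, with a median log2 fold change of 0.14, and 3 were past an absolute log2 fold change of 1. The shares called among all genes are those given for the members above.

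Among 16 co-receptors and binding proteins, 7 rose and 3 fell. Gpc3 (glypican 3, a heparan sulfate proteoglycan) was at 84.3 ± 3.19 FPKM in BPVB and 33.1 ± 0.963 in sham (log2 fold change 1.34, adjusted p = 9.5e-08, limma). Fgfrl1, an FGF receptor without a kinase domain, rose by 0.84, and Klb, the co-receptor of endocrine FGFs with Fgfr4 and Fgfr1, by 0.81, from 0.0569 to 0.479 FPKM. Klb passed the filter only through the BPVB group. The 3 that fell were Ptprb (-0.34), the phosphatase that dephosphorylates Tie2, Nrp1 (-0.19), a VEGF co-receptor, and the syndecan Sdc1 (-0.15).

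Of 7 tested further EGF-family genes, the ligand Nrg1 (0.68) and the receptor Erbb2 (0.25) rose and Erbb4 (-0.56), a neuregulin receptor of heart muscle, fell. Among 9 genes of ligand activation and shedding 6 rose, with Spint1 (0.91) and St14 (0.73), an inhibitor and a protease of epithelial surfaces, and Plau (0.61), the urokinase, on top. Adam17, the main sheddase of Hbegf and Areg, rose as well, from 22.8 ± 0.203 to 29.5 ± 1.02 FPKM (0.36, adjusted p = 3.1e-04, limma), and is named here after its value was seen. Adam10, a related sheddase, fell (-0.16).

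Of 8 intracellular adaptors 3 rose, Frs2 (0.30), Gab1 (0.27) and Shc1 (0.26), and Plcg1 (-0.20), the phospholipase downstream of Kdr, fell. The feedback genes of receptor signalling went both ways. Of 17 tested, 5 rose and 3 fell. The ERK phosphatase genes Dusp4 and Dusp5 rose by 0.98 and 0.97, from 1.70 ± 0.203 to 3.84 ± 0.375 FPKM and from 2.92 ± 0.337 to 6.20 ± 0.202 FPKM, and Spred3 rose by 0.73. Spry1 fell by 0.59 on the log2 scale, from 52.1 ± 0.867 to 34.5 ± 2.19 FPKM, Lrig1, which lowers ErbB receptors, by 0.51, and Spred2 by 0.36. Sprouty and Spred proteins both restrain receptor signalling, so that genes with the same named role were found on both sides.

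Of 9 endothelial genes that are known to respond to VEGF, 1 rose and 5 fell, of which Aplnr is also in the capillary list. Rcan1, an inhibitor of calcineurin, was at 165, 160 and 158 FPKM in the BPVB libraries and at 40.5, 41 and 40.7 FPKM in the sham libraries (log2 fold change 1.97, SE 0.0308, adjusted p = 1.4e-09, limma). It was the highest of the list in the BPVB veins, and Rcan1 is also known in heart and other muscle. Esm1 (endocan, a tip cell gene) fell from 20.7 ± 2.07 to 8.84 ± 1.09 FPKM (-1.18, adjusted p = 3.3e-05), Nr4a1 (an immediate early nuclear receptor) from 25.6 ± 1.5 to 12.8 ± 0.444 FPKM (-0.97, adjusted p = 4.2e-06), and Dll4 (a Notch ligand of tip cells) from 18.2 ± 0.567 to 9.28 ± 0.133 FPKM (-0.93, adjusted p = 3.5e-06, all limma). In each of these 3 genes every BPVB value lay below every sham value. Their falls stood beside a rise of Vegfa and the lower endothelial markers given above.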

How the data were processed

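RNA was measured in 3 BPVB and 3 sham PVs, grouped by the sample labels. The authors deposited FPKM per gene, with NCBI Gene numbers. The submitters' processing notes name HISAT2 2.0.5, StringTie 1.3.3b, featureCounts 1.5.0-p3 and DESeq2 1.20.0, whereas the study's methods name fastp, HISAT, HTSeq-count and DESeq2. The genome build and strand setting are not given in the sources used here. FPKM scale with the library total only, so a few very abundant genes can shift all others.

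The fragments behind the FPKM were recovered as the smallest whole numbers that the values allow. They were whole within 0.001 in 17831 of 17833 genes. PCR copies could not be told from molecules, so floors cover counting error only, and only that of the group at 0 fragments. The variance between libraries of a group was 4.6 to 6.39 times the mean, and each was kept as a separate sample. The libraries come from separate rats by the study's methods.

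The groups were compared with limma 3.58.1 in R 4.3.3 (lmFit, eBayes with a trend) on log2(FPKM + 0.5) for all genes averaging 0.1 FPKM or more, two-sided, after tests on simulated data. A fold change on this scale understates the change of low genes. Ratios within a library were compared by exact permutation tests with Python 3.11.15 and scipy 1.17.1. Alternatives were other pseudocounts, filters and scalings, robust eBayes, a replicate block, limma-voom on fragments and leaving out each library.

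The members, companion lists and marker lists were chosen with earlier results of these data known. Per-library values were given for all receptors, the highest ligand of each family, members past the fold threshold and members of the ratios, and also for other called members. Companion genes, and markers in most lists set beside a member, were named by up to 3 highest and 3 lowest called log2 fold changes of a list. Other marker lists are given by counts, and Myl4, Adam17, Aplnr and Chat were named after their values were seen. Promoter windows were RefSeq sequences of GRCr8, found for 39 of 47 members, and DESeq2 was not run.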

Additional observations from a re-analysis of the deposited data

How the results depend on the processing

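Of 640 log2 fold changes of members under alternatives, 603 kept direction and side of the threshold, 18 lost the call, 11 gained it and 8 changed sign. Of the 17 called members, 13 kept the call under all alternatives that tested them, and Egfr, Fgf10, Tek and Angpt1 did not. The members higher were between 7 and 14 and those lower 6 or 7. The count past an absolute log2 fold change of 1 was 0 with a pseudocount of 1, with genes of at least 1 FPKM (where Fgfr4 was not tested), with median-of-ratios scaling and with quantile normalization, and 0 to 1 when 1 library was left out. Each scaling moved the median of all genes by under 0.1.

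Egfr was not called after quantile normalization (adjusted p = 0.077, limma), and Tek neither there (adjusted p = 0.11) nor with TPM scaling (adjusted p = 0.12). TPM scaling added Fgf1, Fgfr3, Pdgfa and Vegfd, limma-voom Fgf1, a filter of 1 FPKM Vegfd, quantile normalization Fgf18, and no filter Angpt4. Egf was at -0.06 with quantile normalization. With 1 library left out, Egf ran from -0.13 to 0.17, Fgf2 from -0.24 to 0.16, Fgf22 from -0.05 to 0.34 and Fgf21 from -0.38 to 0.13. The causes were not tested. Companion genes gave 21 to 26 higher and 12 to 15 lower, and markers 39 to 42 and 35 to 45.

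Same-numbered libraries did not deviate together (correlations of 0.03, 0.01 and 0.02, and -0.02 to 0.01 for other pairs), so the numbers do not pair the rats. With the replicate block 10 members were higher and 7 lower, as without it. The block cannot change a mean difference between balanced groups, so it tests nothing of the size of the ratios. Depth limits the genes at about 1 FPKM and below most, with as few as 10 fragments behind a value of Fgf10.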
